A study of Homo sapiens with 16 samples.

Results

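The splicing-factor genes described here were the rows of a gene count table whose symbols begin with HNRNP, SRSF, SF3A or SF3B, SNRP, U2AF, PRPF or LSM, the last names each followed by a number where the family is numbered. These were 90 of the 25221 rows, with 86 distinct symbols, and no symbol was dropped as a pseudogene. They comprised 26 hnRNP, 13 SR, 9 SF3, 12 SNRP, 4 U2AF, 13 PRPF and 13 LSM rows. RNA came from MOLM13 cells (labelled as acute myeloid leukemia, passages 8 to 12) and K562 cells (labelled as an erythroid line of chronic myeloid leukemia in blast crisis, passages 12 to 18). Each line was exposed for 4 h to 20 μM Ro 08-2750 (Ro), a small molecule studied as an inhibitor of RNA binding by MSI2, or to the solvent DMSO, with 0.1% DMSO in every culture. There were 4 DMSO and 4 Ro libraries per line, numbered as pairs 1 to 4, and 16 libraries in all. Each line is 1 cell population, so the comparison of the lines cannot be told apart from a comparison of 2 particular cultures.

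Introns are removed from pre-mRNA by the spliceosome, which is assembled from small nuclear ribonucleoproteins (snRNPs). The SNRP genes encode the Sm ring and the proteins specific to the U1 and U2 snRNPs, and the SF3 genes subunits of the U2 snRNP. Most of the LSM genes encode a related ring found on U6 and on decaying mRNA, while LSM10 and LSM14B, for example, lie outside it. The U2AF genes encode the factor that reads the end of the intron, and the PRPF genes proteins of the tri-snRNP and of the catalytic complexes. SR proteins (SRSF genes) and hnRNPs bind the transcript itself and often act in opposite directions on the choice of exons. SF3B1, SRSF2, U2AF1 and PRPF8 are mutated in myeloid neoplasms, and MSI2, the reported target of Ro, is itself an RNA-binding protein.

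Of the 90 rows, 79 passed the filter on low values (10 counts or more in 4 or more of the libraries compared) and were tested in each comparison. Another 11 did not. SRSF2, LSM7, PRPF6, HNRNPUL2 and U2AF1L4 were listed at 0 in all 16 libraries, and whether these zeros are a lack of expression or of assigned reads cannot be told from the table. HNRNPCL2 and HNRNPCL4 held at most 13 counts in any library. The other 4 carried a member's symbol with the identifier of another gene (MIR636 under SRSF2, MIR7-1 under HNRNPK, MIR4444-1 under HNRNPA3, and LOC102724594, a near-identical copy, under U2AF1) and held at most 11 counts. U2AF1, HNRNPA1L2 (a close copy of HNRNPA1), HNRNPCL1 (of HNRNPC), SNRPN (of SNRPB) and SRSF8 (of SRSF2) are uncertain in so far as reads could be split between copies. The last 500 bases of 5 of the 86 genes with a row of their own (PRPF18, SRSF1, SNRPD3, SNRPN and U2AF1L4), or 5.81%, overlapped an exon of another gene on the same strand, against 4.73% of protein-coding genes. Another 7 overlapped one on the opposite strand only: HNRNPU (with COX20), SRSF9 (with GATC), PRPF40B (with FMNL3), HNRNPAB, LSM1, PRPF39 and U2AF2. Whether the counting used strand is not given in the sources used here, so reads of such neighbours cannot be told apart.

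Total counts per library ranged from 3143129 to 43571060, and the members took between 1.17% and 2.32% of them. The smallest libraries were DMSO 2 and DMSO 4 of K562 (3143129 and 4383241 counts). A gene with 3 counts, the least told from 0, stood at 0.954 CPM (counts scaled to a common library size) in the smallest library and at 0.0689 CPM in the largest, for counting error only. These levels use the total count alone. The other CPM values also divide by a normalization factor of the library, 1.09 in the smallest and 1.03 in the largest. Of the erythroid markers, HBG2 was at 1008 to 2202 CPM in K562 and 2.38 to 5.59 CPM in MOLM13, KLF1 at 83.0 to 219 CPM and at most 0.203 CPM, GATA1 at 36.6 to 76.7 CPM and at most 0.135 CPM, HBG1 at 78.8 to 230 CPM and 0, and HBZ at 3.48 to 26.2 CPM and at most 0.0501 CPM. The myeloid markers FLT3, SPI1, CD33, LYZ, MEIS1 and HOXA9 summed to 310 to 392 CPM in MOLM13 and 45.9 to 98.3 CPM in K562, where HOXA9 was at 0. That sum was carried by FLT3, MEIS1 and HOXA9, while CD33 (8.67 to 24.8 CPM in MOLM13, 8.80 to 17.9 CPM in K562) and LYZ (14.1 to 33.5 and 7.82 to 31.9 CPM) overlapped between the lines. K562 DMSO 4 stood apart on the members: 15 of 79 were lower by more than 1 than the mean of the other 3 libraries of its group on the log2(CPM + 1) scale, where 7.77% of 14320 genes were. PRPF4B was at 18.6 CPM there, the rest of its group lying between 116 and 148 CPM, HNRNPH3 at 13.3 against 65.0 to 75.6 CPM, and LSM12 at 12.8 against 44.2 to 60.4 CPM. In MOLM13, DMSO 4 and Ro 4 were higher than the rest of their groups on these genes (medians of 0.30 and 0.45 on that scale, with 17 and 14 of 79 lower). In K562, DMSO 2 was higher by a like amount (median of 0.31, 19 of 79 lower) and Ro 4 lower (median of -0.31, 62 of 79 lower).

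Reads come from the 3′ end of each mRNA, and a count does not grow with the length of a gene, and levels are given as CPM without division by length. The members were abundant: with DMSO, 48 of 79 exceeded a mean of 100 CPM in MOLM13 and 49 in K562, and their medians were 156 and 161 CPM. The hnRNP genes made up the largest sum, 8528 ± 1800 CPM in MOLM13 and 7672 ± 1417 CPM in K562 (SD, n = 4 each). The sum of the SNRP genes was 3324 ± 689 and 3742 ± 411 CPM, that of the SR genes 2396 ± 225 and 2510 ± 204 CPM, and that of the SF3 genes 1590 ± 287 and 2065 ± 282 CPM. The PRPF genes summed to 1581 ± 221 CPM in MOLM13 and 1374 ± 375 CPM in K562, the LSM genes to 890 ± 150 and 1222 ± 158 CPM, and the U2AF genes to 197 ± 48.0 and 237 ± 21.7 CPM. The libraries of the lines overlapped in each of these sums.

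The families differed in how evenly their sums were spread: the highest 3 genes gave 33.0% and 30.8% of the hnRNP sum in MOLM13 and K562, 45.1% and 47.0% of the SNRP sum, and 65.5% and 73.1% of the SF3 sum. HNRNPU, a scaffold protein of nuclear RNA, was the highest hnRNP gene in MOLM13 (1180 ± 268 CPM, 13.8% of the family), and HNRNPK, which binds C-rich RNA, in K562 (847 ± 240 CPM, 11.0%), while HNRNPCL1 was the lowest tested in each line (8.98 ± 1.02 and 6.96 ± 1.57 CPM). SRSF3 led the SR genes (698 ± 108 and 752 ± 122 CPM) and SRSF12 was the lowest. SF3B5, a small subunit of SF3b, led its family at 677 ± 101 and 906 ± 94.5 CPM, which was 42.5% and 43.9% of the SF3 sum, and the lowest were SF3A2 in MOLM13 and SF3B4 in K562. SNRPF was the highest SNRP gene in MOLM13 (616 ± 86.5 CPM) and SNRPD2 in K562 (626 ± 140 CPM), with SNRPA1 and SNRPN the lowest. PRPF19, a ubiquitin ligase of the spliceosome, led the PRPF genes in MOLM13 (374 ± 146 CPM), and PRPF38A was the lowest of all members tested, at 0.879 and 0.727 CPM. LSM2 was the highest and LSM11 the lowest LSM gene in each line, and U2AF2 gave 93.6% and 89.0% of the U2AF sum, U2AF1 being listed at 12.5 ± 1.81 and 26.0 ± 11.5 CPM. The coefficient of variation over the 4 libraries of a group had a median of 17.9% in MOLM13 and 23.7% in K562 with DMSO.

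With DMSO, 18 of the 79 members differed between the lines (edgeR quasi-likelihood test, adjusted p under 0.05 over 15268 genes): 9 were higher in MOLM13, where 21.1% of all genes were, and 9 were lower, where 20.3% were. As shares of the members each is 11.4%, under the background, and for genes of like mean level 44.3% were called in either direction against 22.8% of the members. The median difference of the members (MOLM13 less K562) was -0.08 on the log2 scale, against -0.00 over all genes. By libraries, 11 members lay above K562 in all 4 MOLM13 libraries and 8 below, against 20.5% and 18.9% of all genes. Of the families, the PRPF genes had 3 called higher and 1 lower (median 0.27), the LSM genes 0 higher and 3 lower (median -0.17), the hnRNP genes 4 and 1 (median 0.05), the SR genes 0 and 1, the SF3 and the SNRP genes 1 and 1 each, and the U2AF genes 0 and 1.

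**Figure D1:**
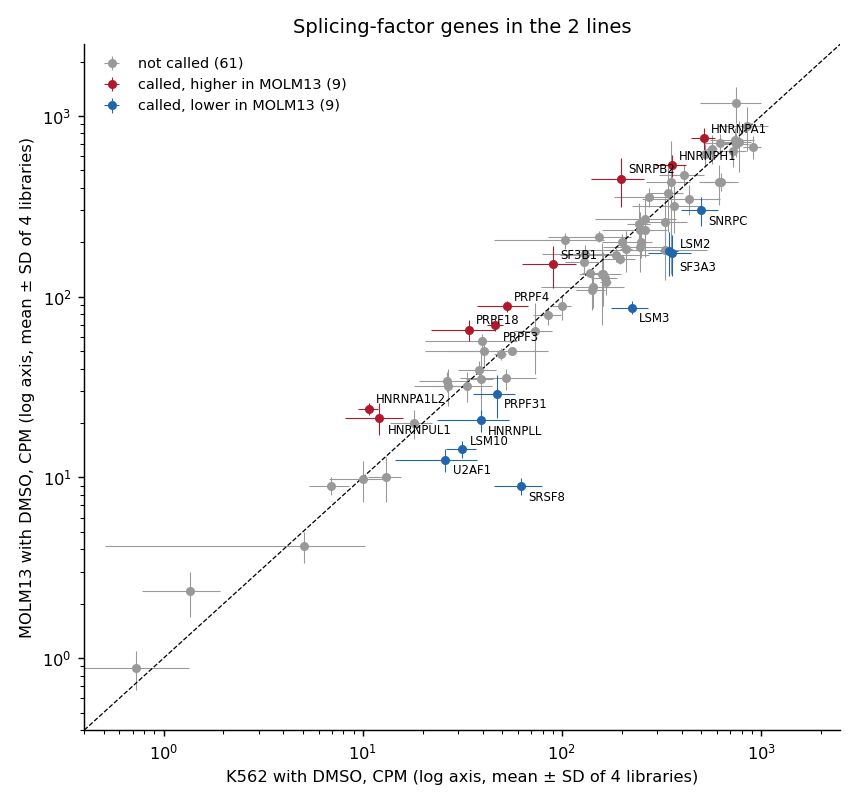
Mean CPM of the 79 tested splicing-factor genes in K562 (x axis) and MOLM13 (y axis) with DMSO on log axes, with bars for the SD of 4 libraries, and the dashed line marking equal levels; the lower K562 bar of SRSF9, whose SD exceeds its mean, is shortened to stay on the axis. Most genes lie near the line, and the 9 called higher and 9 called lower in MOLM13 are coloured and named, SRSF8 lying farthest from it.

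The largest difference was in SRSF8, an SR gene without introns that derives from SRSF2. It was at 7.94, 8.68, 8.83 and 10.3 CPM in the MOLM13 DMSO libraries and at 54.7, 54.3, 52.9 and 87.6 CPM in those of K562. All K562 libraries were thus above all MOLM13 libraries, K562 DMSO 4 being the highest. The difference was -2.79 ± 0.23 (log2, SE) (adjusted p = 4.9e-07, edgeR), or 6.98-fold between the means. SRSF2 was among the genes listed at 0, so the pair could not be compared.

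Among the LSM genes, 3 were lower in MOLM13. LSM3, a subunit of the U6 ring, was at 84.8, 77.9, 91.8 and 93.7 CPM in MOLM13 and at 240, 280, 170 and 204 CPM in K562, without overlap (-1.35 ± 0.22, adjusted p = 0.00019, edgeR). LSM2 of the same ring was at 143, 150, 172 and 248 CPM against 346, 334, 308 and 397 CPM (-0.95 ± 0.23, adjusted p = 0.0047, edgeR). LSM10, which belongs to the U7 snRNP of histone mRNA processing, was at 13.0, 13.8, 16.4 and 14.2 CPM against 28.1, 36.9, 25.8 and 35.6 CPM (-1.12 ± 0.21, adjusted p = 0.00062, edgeR). Each of these genes was lower in every MOLM13 library than in any K562 library.

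Of the U2 snRNP and its partners, genes were called in each direction. SNRPB2, the U2 snRNP protein B″, was at 388, 352, 409 and 647 CPM in MOLM13 and at 243, 248, 182 and 122 CPM in K562 (1.18 ± 0.28, adjusted p = 0.0039, edgeR). SF3B1, the largest SF3b subunit, which contacts the branch site, was at 126, 125, 143 and 209 CPM against 97.9, 120, 88.4 and 55.0 CPM (0.75 ± 0.27, adjusted p = 0.039, edgeR). Their MOLM13 libraries all lay above those of K562, by little for SF3B1. SF3A3, a subunit of SF3a, went the other way, with 147, 146, 166 and 242 CPM against 406, 445, 328 and 248 CPM (-1.02 ± 0.25, adjusted p = 0.0056, edgeR). U2AF1, the small subunit of the U2 auxiliary factor, was at 11.1, 10.8, 13.5 and 14.5 CPM against 26.0, 11.6, 26.6 and 39.8 CPM, so that K562 DMSO 2 fell inside the MOLM13 range (-1.06 ± 0.30, adjusted p = 0.013, edgeR). SNRPC of the U1 snRNP was also lower in MOLM13 (-0.72 ± 0.23, adjusted p = 0.022, edgeR).

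The hnRNP genes higher in MOLM13 were HNRNPA1L2, HNRNPUL1, HNRNPH1 and HNRNPA1. HNRNPA1L2 was at 26.6, 22.8, 22.5 and 24.3 CPM in MOLM13 and 11.7, 11.9, 9.81 and 9.46 CPM in K562 (1.17 ± 0.20, adjusted p = 0.00035, edgeR). HNRNPA1, which represses the use of exons, was at 641, 699, 796 and 873 CPM against 540, 435, 488 and 599 CPM (0.55 ± 0.21, adjusted p = 0.049, edgeR). Neither gene overlapped between the lines, though the sequences of this pair are alike. HNRNPLL, a regulator of exons in lymphocytes, was lower in MOLM13 at 19.4, 17.9, 21.0 and 24.6 CPM against 36.4, 52.3, 49.1 and 18.4 CPM, K562 DMSO 4 lying within the MOLM13 range (-0.91 ± 0.29, adjusted p = 0.022, edgeR).

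Of the PRPF genes, PRPF18, a factor of the second step of splicing, was at 78.0, 65.7, 62.0 and 57.0 CPM in MOLM13 and at 39.2, 46.8, 31.6 and 18.6 CPM in K562 (0.96 ± 0.26, adjusted p = 0.0092, edgeR). PRPF4 and PRPF3, which form a complex of the tri-snRNP, were higher by 0.75 ± 0.23 and 0.59 ± 0.18 (adjusted p = 0.017 and 0.018, edgeR). PRPF31 of the same particle was lower by 0.68 (log2 change of -0.68 ± 0.24, adjusted p = 0.037, edgeR). PRPF8, the core of the catalytic center, was at 156 ± 21.6 and 129 ± 25.4 CPM and was not called.

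When each of the 8 DMSO libraries was left out in turn, 9 of the 18 calls held every time: SRSF8, LSM3, LSM2, LSM10, HNRNPA1L2, SNRPB2, SF3A3, PRPF18 and U2AF1. The other 9 lost the call in at least 1 such fit, with a highest adjusted p of 0.12 for HNRNPA1 (without MOLM13 DMSO 3) and HNRNPH1 (without MOLM13 DMSO 1), 0.13 for PRPF31 and 0.080 for SNRPC (without MOLM13 DMSO 2), 0.083 for HNRNPUL1 (without MOLM13 DMSO 1), 0.089 for SF3B1, 0.078 for HNRNPLL and 0.059 for PRPF4 (without K562 DMSO 3), and 0.055 for PRPF3 (without K562 DMSO 1), and none of the 18 changed sign. Without K562 DMSO 1, 4 members were higher and 7 lower, where 2630 and 2479 of 14608 genes were. Scaling to the total count moved the median of all genes by over 0.1, to -0.41, and that of the members to -0.46. The calls then split into 2 members higher and 26 lower, where 2023 and 5008 of all 15268 genes were.

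The balance between related genes was compared with DMSO through the difference of their log2(CPM + 1) values in each library, for 14 pairs, among them HNRNPA1 and HNRNPA2B1, HNRNPA2B1 and HNRNPA3, HNRNPD and HNRNPDL, HNRNPH1 and HNRNPH2, HNRNPL and HNRNPLL, HNRNPU and HNRNPUL1, SRSF1 and SRSF9, SRSF4 and SRSF6, SRSF10 and SRSF12, SNRPB and SNRPN, SNRPA and SNRPB2, PRPF38A and PRPF38B, and LSM14A and LSM14B. The largest shift was in SNRPA and SNRPB2, the related proteins of the U1 and U2 snRNPs: SNRPA less SNRPB2 was -1.80 ± 0.25 in MOLM13 and -0.27 ± 0.53 in K562 (SD, n = 4 each), a difference of -1.53 with p = 0.029 in a two-sided exact permutation test, the smallest p that 4 against 4 libraries allow. HNRNPH1 less HNRNPH2 was 3.73 ± 0.34 and 3.19 ± 0.14, and PRPF38A less PRPF38B -6.85 ± 0.16 and -6.40 ± 0.35, each with the same exact p (n = 4). Adjusted over the 14 pairs, the exact permutation p of these 3 was 0.13, so 0 pairs passed. With 0.029 as the smallest p, no pair could pass unless most of the 14 reached it. The test could not call 1 pair by itself, and it does not show that the ratios are alike. PRPF38A was near the counting limit, and its ratio rests on few reads.

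With Ro in MOLM13 most members had slightly lower values than with DMSO, and 2 hnRNP genes fell within pairs. In the fit without pairs 0 of 79 members were called, as were 0% of all genes, with 0 members at an unadjusted p under 0.05 in edgeR and 0 members called by DESeq2. Same-numbered libraries deviated together, and with the pair in the model 2 members fell and 0 rose in edgeR's quasi-likelihood test (adjusted p under 0.05), where 1.17% of all 15031 genes fell and 0.938% rose. These were HNRNPU and HNRNPK. In either direction 2.53% of the members were called, against 3.19% of genes of like mean level. At an unadjusted p under 0.05, 19 members were lower, or 24.1%, against 9.65% of all genes and 18.7% of genes of like mean level. PRPF38B and SRSF11 were the 2 that were higher, or 2.53% of the members against 7.55% of all genes. These counts are descriptions of unadjusted values. With total-count scaling the 19 became 8, while the lower genes of the whole table went from 1450 to 594 of 15031.

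HNRNPU was at 1023, 1024, 1094 and 1579 CPM in the DMSO libraries of pairs 1 to 4 and at 781, 936, 839 and 1168 CPM with Ro. It was lower with Ro in each pair, by 0.38, 0.12, 0.35 and 0.43 on the log2 scale (changes of -0.38, -0.12, -0.35 and -0.43), although the groups overlapped through pair 4. The change was -0.32 ± 0.07 (log2, SE) within pairs with an adjusted p of 0.015 in edgeR, and -0.33 ± 0.17 (adjusted p = 1.0) without them. HNRNPK was at 714, 738, 837 and 1224 CPM with DMSO and at 572, 672, 673 and 999.6 CPM with Ro, lower in each pair and overlapping in the same way. Its change was -0.25 ± 0.07 within pairs, with an adjusted p of 0.047 in edgeR. Leaving out pair 1 or pair 3 ended both calls (adjusted p of 0.14 and 0.17 for HNRNPU and of 0.23 and 0.32 for HNRNPK), and leaving out pair 4 ended that of HNRNPK (0.091), as did a minimum of 50 counts (0.052) and upper-quartile or total-count scaling (0.055 and 0.0996). Within pairs, DESeq2 called 5 members lower, these 2 with U2AF2, HNRNPA3 and HNRNPH1, and 0 higher. Of all 15031 genes it called 196 lower and 64 higher.

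PRPF38B, a relative of the spliceosome activation factor PRPF38A, was at 230, 194, 215 and 219 CPM with DMSO and at 311, 304, 227 and 228 CPM with Ro. It was higher in each pair, by far more in pairs 1 and 2 (0.44 and 0.66) than in pairs 3 and 4 (0.11 and 0.07), and its change within pairs was 0.32 ± 0.08 with an adjusted p of 0.051 in edgeR. It was called without pair 4 (adjusted p = 0.012), without a filter, with a minimum of 50 counts and with upper-quartile or total-count scaling (adjusted p of 0.0025, 0.045, 0.034 and 0.0049, edgeR). SRSF11, an SR-like protein, was at 335, 321, 357 and 419 CPM with DMSO and at 412, 376, 358 and 495 CPM with Ro (0.21 ± 0.07 within pairs, adjusted p = 0.12, edgeR). With total-count scaling SRSF11 was called within pairs (0.26, adjusted p = 0.039, edgeR). Of the genes mutated in myeloid neoplasms, SF3B1 was lower in each pair (-0.19 ± 0.07, adjusted p = 0.15), PRPF8 likewise in each pair by 0.06 to 0.28 (-0.06 to -0.28), and U2AF1 in 3 of 4, and none of them was called.

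**Figure D2:**
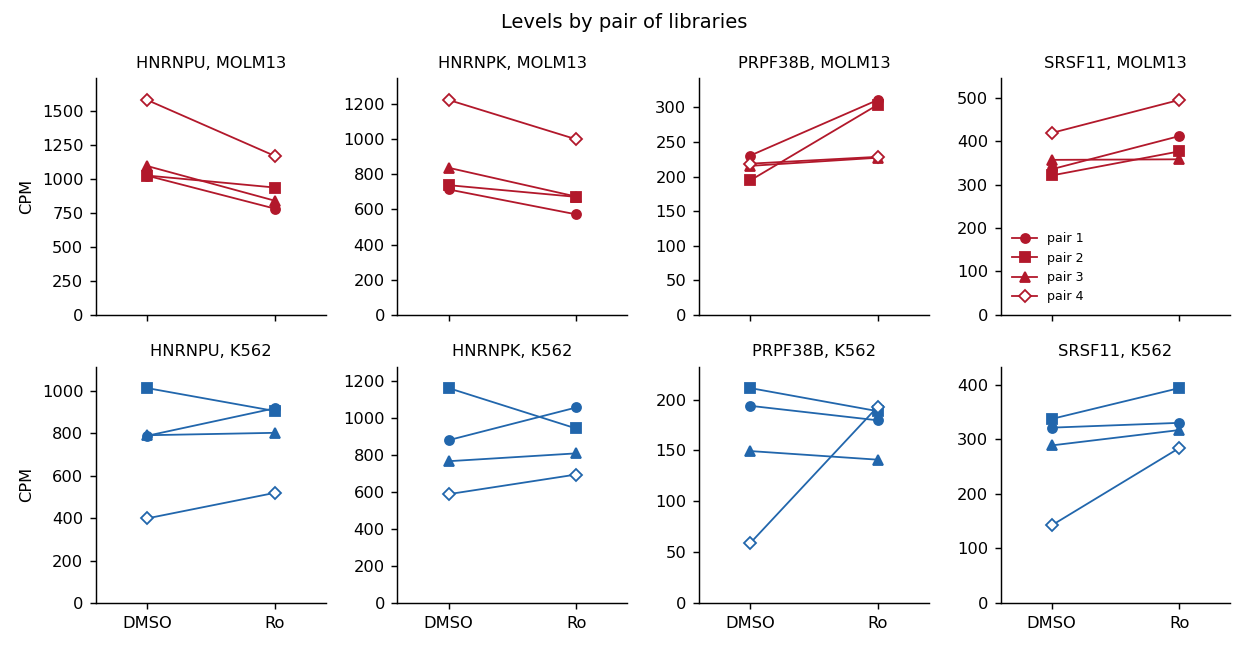
CPM of HNRNPU, HNRNPK, PRPF38B and SRSF11 with DMSO and Ro in MOLM13 (upper row) and K562 (lower row), each line joining the libraries of 1 pair and each marker shape standing for a pair. HNRNPU and HNRNPK are lower with Ro in all 4 MOLM13 pairs, and in K562 the DMSO library of pair 4 is the lowest for all 4 genes.

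Over all members, 23 of 79 were lower with Ro in all 4 MOLM13 pairs, or 29.1%, against 13.3% of all genes, and 2 were higher in all 4, against 11.4%. The share among genes of like mean level was not counted for these patterns. Of the 23, 10 were among the 21 hnRNP genes tested (HNRNPA0, HNRNPA1, HNRNPA2B1, HNRNPA3, HNRNPAB, HNRNPD, HNRNPF, HNRNPH1, HNRNPK and HNRNPU). By family the median change was -0.11 for the hnRNP genes, with 20 of 21 lower. It was -0.06 for the SF3 genes (9 of 9 lower), -0.09 for the SNRP genes (11 of 12), -0.12 for the LSM genes (10 of 12), -0.19 for U2AF1 and U2AF2, and -0.04 for the PRPF genes (6 of 12). The SR genes had a median of 0.04 with 7 of 11 higher, and within pairs of 0.03 with 6 of 11 higher. By pair their medians were -0.14, 0.11, -0.06 and 0.09, so that in pairs 1 and 3 they were below 0 as the members were. The pairs were not alike: the median of the members was -0.16 in pair 1, 0.02 in pair 2, -0.15 in pair 3 and -0.06 in pair 4, while that of all genes lay between -0.02 and 0.01.

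**Figure D3:**
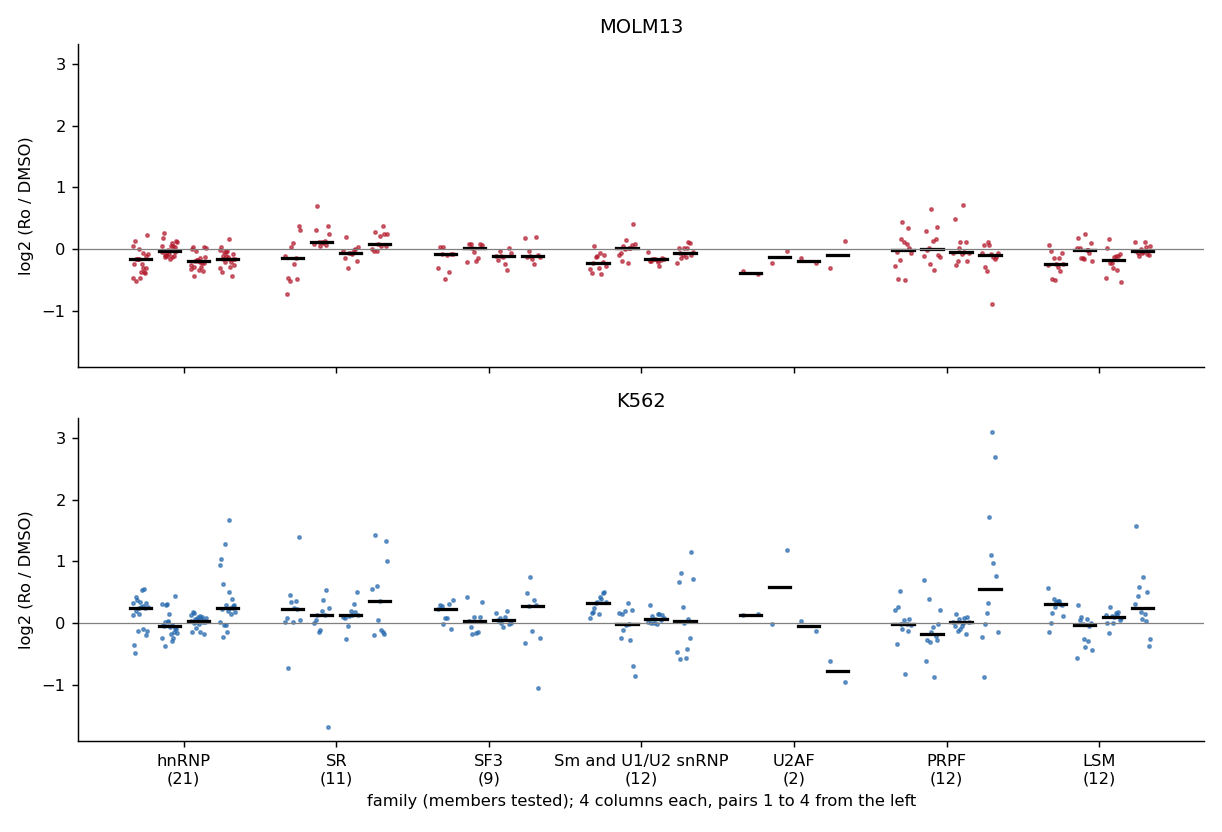
Change with Ro (log2 of Ro over DMSO, y axis) of each tested member in MOLM13 (above) and K562 (below), by family with the number of members in parentheses; within a family the 4 columns are pairs 1 to 4, points are genes and black bars medians. In MOLM13 most medians lie slightly below 0 in pairs 1 and 3, and in K562 pair 4 spreads widest, up to the PRPF genes above 2.

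The change with Ro varied with the level of a gene, and the members are abundant, with 59 of 79 in the top 5 of 20 level bins. Genes of like mean level had a median change of -0.06 in MOLM13, where the members had -0.09 (all genes 0.00), and 33.0% of them were higher with Ro against 21.5% of the members. Less the median of its bin, the median member was at -0.02, with 30 of 79 above 0. In pairs 1 to 4 it was at -0.11, 0.02, -0.06 and 0.02. By family that adjusted median was -0.05 for the hnRNP genes, -0.07 for the LSM genes, -0.16 for the 2 U2AF genes and 0.13 for the SR genes. It was -0.0039 for the SF3 genes, -0.01 for the SNRP genes and -0.02 for the PRPF genes. In pairs 1 to 4 that of the SR genes was -0.11, 0.12, 0.03 and 0.21. Within pairs the members' median was -0.08 and lay between -0.12 and -0.04 when 1 pair was left out. In the fit without pairs, where leaving out 1 library of a pair unbalances the groups, it was -0.00 without MOLM13 DMSO 4 (38 of 79 higher) and -0.21 without MOLM13 Ro 4. With total-count scaling it was -0.03, with 31 of 79 higher, and less the bin median it was again -0.02. How much of any family median follows from level was not tested. In bulk RNA, fewer cells of a kind and less RNA per cell cannot be told apart.

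**Figure D4:**
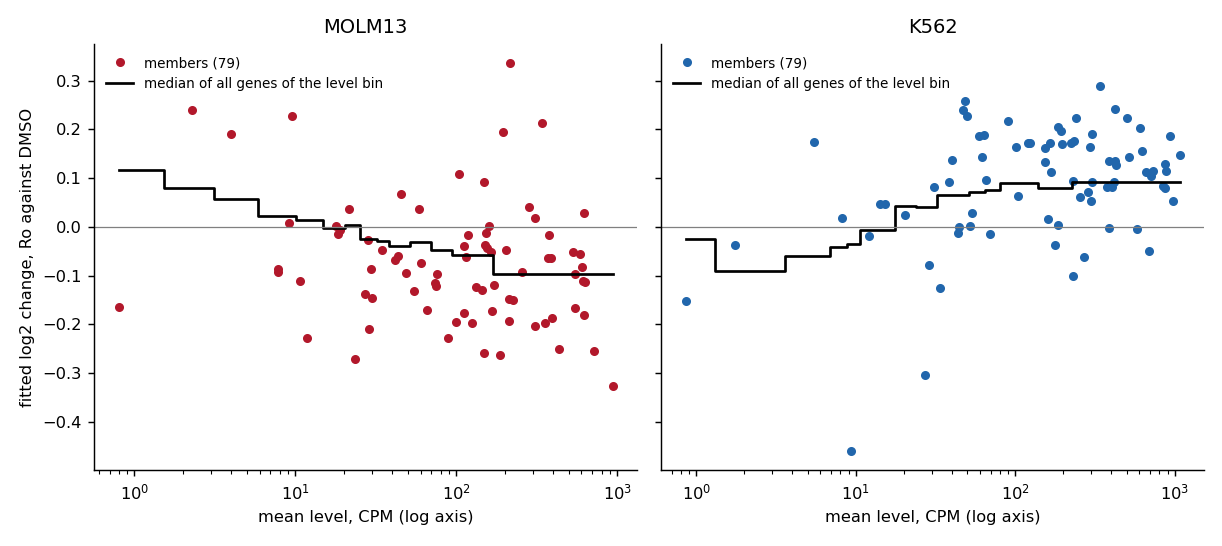
Fitted log2 change with Ro (y axis) of the 79 tested members against mean CPM (log x axis) in MOLM13 (left) and K562 (right); the black step line is the median change of all genes in the member's level bin. The line falls with level in MOLM13 and rises in K562, and the members scatter about it in each line.

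In K562, 0 of 79 members were called without pairs and 0 within pairs, as were 0% of all genes in each fit, and DESeq2 called 0 in each. At an unadjusted p under 0.05 in edgeR there were 0 members without pairs and 1 within pairs, PRPF40B, against 1.27% of all genes lower. PRPF40B was at 7.04, 13.1, 7.33 and 12.6 CPM with DMSO and at 5.46, 8.39, 7.18 and 6.82 CPM with Ro (-0.46 ± 0.20 within pairs, adjusted p = 0.95, edgeR). It was the 1 member lower in all 4 pairs, where 4.54% of all genes were lower. The 7 members higher in all 4 pairs were HNRNPA0, HNRNPC, LSM1, LSM14B, SF3A1, SRSF11 and SRSF4, or 8.86% of the 79, against 7.07% of all genes. Among them LSM14B, a protein of mRNA storage granules, was at 44.9, 42.7, 37.8 and 30.8 CPM with DMSO and at 49.9, 45.0, 45.4 and 46.0 CPM with Ro (0.26 ± 0.16, adjusted p = 1.0, edgeR).

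The members' median in K562 was 0.10, with 64 of 79 higher, against 0.02 over all genes and 0.09 for genes of like mean level, of which 70.6% were higher. Less the median of its bin the median member was at 0.03, and in pairs 1 to 4 at 0.04, -0.0015, 0.05 and 0.08. By family, the median was 0.17 for the SR genes, 0.14 for the PRPF genes, 0.11 for the LSM genes, 0.09 for the hnRNP genes and for the SNRP genes, 0.08 for the SF3 genes and -0.09 for the U2AF genes. The medians of the members by pair were 0.23, -0.03, 0.07 and 0.24. Within pairs the median of all members was 0.12, and it lay between 0.07 and 0.16 when 1 pair was left out. In the fit without pairs, left unbalanced, it was -0.00 without K562 DMSO 4 (39 of 79 higher) and likewise without K562 Ro 1. With total-count scaling it was 0.03, with 52 of 79 higher. Within pairs 1 and 3 alone, which leave out the smallest libraries, 3 of 78 members were called higher and 0 lower in edgeR, against 1.43% of all 13667 genes higher and 1.63% lower. They were SRSF9 (0.99 ± 0.22), LSM6 (0.33 ± 0.10) and SRSF6 (0.32 ± 0.10). SRSF9 was at 3.91, 12.5, 3.24 and 0.701 CPM with DMSO and at 10.3, 3.80, 4.66 and 1.90 CPM with Ro, so pair 2 moved the other way, and its level was near the counting limit of the smallest libraries. For the other 2 genes a pair left out also went the other way: LSM6 changed by -0.57 in pair 2 and 0.57 in pair 1, and SRSF6 by -0.15 in pair 4.

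The Ro change differed between the lines for 0 of 79 members, as for 0% of 16224 genes, in the interaction test of edgeR without pairs and within pairs, with 0 called by DESeq2 in each. Without pairs 0 members had an unadjusted p under 0.05. Within pairs 7 members had a more negative change in MOLM13 at an unadjusted p under 0.05, or 8.86%, against 2.93% of all genes and 4.47% of genes of like level, and PRPF40B a more positive one, against 3.08%. The 7 were LSM14B, HNRNPU, HNRNPA0, LSM8, PRPF19, HNRNPA3 and HNRNPH1, each with an adjusted p of 0.77. The median difference (MOLM13 change less K562 change) was -0.18 over the members and -0.15 for genes of like level. In HNRNPU the changes by pair were -0.38, -0.12, -0.35 and -0.43 in MOLM13 and 0.24, -0.15, 0.01 and 0.38 in K562, where its CPM was 788, 1013, 791 and 398 with DMSO and 918, 905, 802 and 519 with Ro. HNRNPA0 and LSM14B were lower in all 4 MOLM13 pairs and higher in all 4 K562 pairs, and SRSF11 was higher in all 8 pairs. Of all genes, 13.3% were lower and 11.4% higher in all 4 MOLM13 pairs, and 7.07% were higher in all 4 K562 pairs. The share of all genes with both patterns at once was not counted, so these genes are a description only.

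A further 80 spliceosome genes, listed from other families with earlier results of these data known, were set beside the members, and 75 of them were tested. Between the lines 4 of the 75 were higher in MOLM13 and 11 lower, where 21.1% and 20.3% of all genes were, so that both counts are under the background. Among them were MBNL1, a regulator of exon choice, at 1.19 ± 0.25, and the U11/U12 protein gene SNRNP25 at -1.22 ± 0.20 (edgeR, adjusted p = 0.0017 and 0.00028). With Ro in MOLM13 within pairs 2 of the 75 fell and 0 rose, where 1.17% and 0.938% of all genes did. They were SNRNP70, the U1 70K protein gene, by 0.32 (-0.32 ± 0.08, adjusted p = 0.032) and PTBP1, the polypyrimidine tract-binding protein gene, by 0.29 (-0.29 ± 0.07, adjusted p = 0.032, edgeR). Their median was -0.05 in MOLM13 and 0.09 in K562 without pairs, and 0 were called in K562 or between the lines in the Ro change.

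Promoter sequence was read for 76 of the 86 genes from RefSeq (GRCh38.p14), as the 250 bases before the start of the gene. The members' promoters had a median GC content of 61.2% and a CpG ratio (observed over expected) of 0.933, against 58.0% and 0.556 over 27305 genes. The letters CCGGAAG, a core bound by ETS factors, were found on either strand in 23 of 76 promoters (30.3%), against 8.82% of all, and 13 of the 23 are SF3 or SNRP genes. GGGCGG, the SP1 box, was in 45 (59.2%) against 42.3%, CACGTG in 7 (9.21%) against 6.49%, TATAAA in 7 (9.21%) against 11.1%, GCGCATGC (of NRF1) in 5 (6.58%) against 2.81%, AAGATGGC (of YY1) in 1 (1.32%) against 1.37%, and TGACGTCA in 0 against 1.77%. All genes include many that are silent in these cells, and the shares are a description of letters. The 4 promoters below are those of the members called with Ro in MOLM13, HNRNPU (chr1:244864544-244864793, minus strand) and HNRNPK (chr9:83980616-83980865, minus strand), and of the members with the largest line differences in each direction, SNRPB2 (chr20:16729776-16730025, plus strand) and SRSF8 (chr11:95066627-95066876, plus strand), each printed 5′ to 3′ along its gene, with any of these motifs or its reverse complement in capitals.
HNRNPU: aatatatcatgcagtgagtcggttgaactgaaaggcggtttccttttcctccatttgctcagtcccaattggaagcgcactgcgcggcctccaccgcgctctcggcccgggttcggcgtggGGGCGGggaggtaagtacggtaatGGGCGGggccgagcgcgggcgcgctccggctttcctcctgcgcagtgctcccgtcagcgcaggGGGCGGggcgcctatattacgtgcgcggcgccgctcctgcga
HNRNPK: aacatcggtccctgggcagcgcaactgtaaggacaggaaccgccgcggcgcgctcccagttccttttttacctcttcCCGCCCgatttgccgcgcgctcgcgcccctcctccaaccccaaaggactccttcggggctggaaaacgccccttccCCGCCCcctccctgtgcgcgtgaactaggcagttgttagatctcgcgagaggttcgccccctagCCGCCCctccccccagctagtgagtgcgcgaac
SNRPB2: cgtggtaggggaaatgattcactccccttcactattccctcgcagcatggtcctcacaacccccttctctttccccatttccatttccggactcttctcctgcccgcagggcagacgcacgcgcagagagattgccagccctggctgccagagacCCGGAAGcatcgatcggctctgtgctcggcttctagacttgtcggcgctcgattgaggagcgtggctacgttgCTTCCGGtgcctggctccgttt
SRSF8: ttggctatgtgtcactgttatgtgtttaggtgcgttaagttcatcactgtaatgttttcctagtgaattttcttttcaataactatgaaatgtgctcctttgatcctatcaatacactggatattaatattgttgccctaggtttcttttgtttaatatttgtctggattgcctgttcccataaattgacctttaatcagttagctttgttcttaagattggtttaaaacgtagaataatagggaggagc
The promoters of HNRNPU and HNRNPK each held 3 matches, all to the SP1 box, on the given strand in HNRNPU and as the reverse complement CCGCCC in HNRNPK. That of SNRPB2 held CCGGAAG and its reverse complement CTTCCGG. That of SRSF8, the gene without introns, held none of these letters and had a GC content of 33.6%, the lowest among the 76, and a CpG ratio of 0.288.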

How the data were processed

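RNA of 16 libraries was made into 3′-end libraries (QuantSeq 3′ FWD) with spike-in RNAs. The authors deposited whole-number counts of reads per gene, without normalization; the submitters' processing notes name Trim Galore, STAR 2.5.3a, SAMtools 1.5 and hg38, and the counting program is not given in the sources used here. Rows were followed by Entrez identifier, and 0 columns lacked a sample. Groups and pairs come from the labels. That same-numbered libraries share a culture or day is not given, so p-values measure only the spread between these samples. Their deviations from the group means correlated at 0.39 to 0.83 in MOLM13 and 0.11 to 0.42 in K562 across genes, so each number was used as a pair. Counts were fitted across all genes with edgeR 4.0.16 (TMM, quasi-likelihood, R 4.3.3; at least 10 counts in 4 libraries; Benjamini-Hochberg adjustment, threshold 0.05), per line, between DMSO groups, and over all 16 libraries for the difference between lines. CPM use TMM library sizes (the levels of 3 counts use the total count), changes by pair a prior count of 2, and ratios a pseudocount of 1 CPM with exact permutation tests. Alternatives were DESeq2 1.42.0, its size factors, other scalings, no filter, at least 50 counts, the pair as a block, and leaving out libraries or pairs. Scripts were tested on simulated counts. Tables were made with Python 3.11.15, pandas 2.3.3 and scipy 1.17.1. The members and all lists were chosen with earlier results of these data known. Named genes were those called, the highest and lowest of each family, 5 genes of prior interest, the listed pairs and, where none was called, up to 5 per direction with the same sign in all 4 pairs; PRPF38B, SRSF11, PRPF4B, HNRNPH3, LSM12, SRSF9, LSM6, SRSF6 and genes of the unadjusted counts were named after their values were seen. Some results the rule would name are not reported here.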

Additional observations from a re-analysis of the deposited data

Results flagged for a closer look

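Within each group of 4 libraries, 152 values (the 7 family sums and the CPM of 31 named members) were checked for a library far from the other 3, by the gap to the nearest library as a share of the group's range (Dixon's ratio). Of these 12 lay above its 95% critical value, where chance flags about 1 in 20.

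Most were set by pair 4 of MOLM13. With Ro, its library gave the highest sum of the hnRNP genes (9851 CPM against 6325 to 6914, ratio 0.833), of the SF3 genes (1849 against 1323 to 1413, ratio 0.830) and of the SNRP genes (4195 against 2652 to 2786, ratio 0.913). The same library was high in PRPF31 (32.3 against 20.2 to 21.4 CPM, ratio 0.899), SF3B1 (176 against 109 to 119 CPM, ratio 0.856) and SNRPC (354 against 246 to 259 CPM, ratio 0.877), and the DMSO library of that pair in HNRNPU (1579 against 1023 to 1094 CPM, ratio 0.872).

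MOLM13 DMSO 1 was high in HNRNPUL1 (27.7 against 18.7 to 19.7 CPM, ratio 0.886) and MOLM13 Ro 1 low in SRSF6 (70.9 against 134 to 138 CPM, ratio 0.946). In K562, pair 4 was high in SRSF8 with DMSO (87.6 against 52.9 to 54.7 CPM, ratio 0.948) and with Ro (76.1 against 55.5 to 57.5 CPM, ratio 0.903), and Ro 1 was low in HNRNPA1L2 (8.19 against 11.1 to 11.4 CPM, ratio 0.912).

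HNRNPA0, an hnRNP protein that binds AU-rich mRNA, and LSM14B were lower with Ro in every MOLM13 pair and higher in every K562 pair. Their mean changes in MOLM13 less those in K562 were -0.39 and -0.51 on the log2 scale. In the interaction test of edgeR within pairs the adjusted p was 0.77 for each, so the difference did not pass. Of all genes, 13.3% were lower in all 4 MOLM13 pairs and 7.07% higher in all 4 K562 pairs. The share with both at once was not counted.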

How the results depend on the processing

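No call of a member with Ro was made in either line without pairs under any of the alternatives that keep to that fit (DESeq2, its size factors, filters, scalings, each library left out), nor between the lines in the Ro change with or without the replicate block. The replicate block gave 2 members in MOLM13, 0 in K562 and 0 in the difference between the lines. Within pairs in MOLM13 the count of 2, both lower, became 4 with DESeq2's size factors, 5 with DESeq2 and 7 without a filter. It was 0 to 5 when 1 pair was left out. The 4 with size factors and the 5 with DESeq2 were all lower. Without a filter 6 were lower and 1 higher, where 392 and 244 of 19592 genes were. A minimum of 50 counts and upper-quartile scaling each gave 1 lower and 1 higher. Total-count scaling gave 1 lower and 2 higher, where 76 and 189 of 15031 genes were. Within K562 pairs 1 and 3 the count was 3. Between the lines the 18 calls became 28 with total-count scaling, which like upper-quartile scaling was added to the counts of calls after the data had been seen, and 11 to 24 when 1 library was left out. With total-count scaling 2023 of 15268 genes were called higher in MOLM13 and 5008 lower. The median Ro change of the members ranged from -0.21 to -0.0029 in MOLM13 when 1 library was left out, and from -0.00 to 0.19 in K562, fits in which the groups are unbalanced. With the replicate block it was -0.08 and 0.12, or -0.12 to -0.04 and 0.07 to 0.16 when 1 pair was left out. With total-count scaling and no block it was -0.03 and 0.03. The median line difference was -0.46 with total-count scaling and ranged from -0.16 to 0.03 when 1 library was left out. No paralog pair passed with a pseudocount of 0.1 or 5 CPM or without any library, where the same limit on the smallest p held. Keeping only members without a hyphen in the symbol left the set as it was and was not run.

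Of 581 values for single named members under the alternatives, 514 kept sign and side of the threshold. Another 45 weakened past the threshold and 2 strengthened past it. The other 20 changed sign, all in Ro changes that were not called. When 1 library was left out, the change in K562 ranged from -0.085 to 0.23 in HNRNPK, -0.13 to 0.25 in HNRNPU, -0.11 to 0.30 in LSM6, -0.11 to 0.22 in SF3B1, -0.10 to 0.47 in SRSF6, -0.39 to 0.78 in SRSF9 and -0.30 to 0.16 in U2AF1, and in MOLM13 from -0.30 to 0.00035 in U2AF1. HNRNPK in K562 was at -0.0097 with total-count scaling, and U2AF1 in K562 at 0.0062 with the replicate block. The cause of these changes was not tested.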
